A study of Caenorhabditis elegans with 33 samples.

Results

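The genes described here encode the main enzymes that remove superoxide and hydrogen peroxide in Caenorhabditis elegans. They are the superoxide dismutases sod-1, sod-2, sod-4 and sod-5, the catalases ctl-1, ctl-2 and ctl-3, the peroxiredoxins prdx-2 and prdx-3, and the thioredoxin reductase trxr-1. They were picked by gene name, at a time when earlier results of these data were known, and make up 10 of the 46778 gene identifiers in the count tables; all 10 were matched and all 10 had enough reads to be tested. Superoxide dismutases turn superoxide into hydrogen peroxide and oxygen, and catalases and peroxiredoxins then break hydrogen peroxide down. Catalases need no reducing partner, whereas peroxiredoxins are oxidised in each round and are restored by thioredoxin, which thioredoxin reductase keeps reduced with NADPH. Ionising radiation splits water and so yields these oxygen species inside cells, and in the worm several of these genes are known targets of the insulin pathway.

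RNA was sequenced from whole wild-type N2 worms, labelled both as L4 and as young adult, grown at 19 °C on bacterial lawns. Exposed worms received gamma radiation at 50 mGy/h for 65 h, the whole time between embryo and harvest, in generation F0 alone or in F0 and every later generation up to the one sampled (F1, F2 or F3). Recovery worms descend from an irradiated F0 and were themselves unirradiated, as were any generations between, for 1, 2 or 3 generations (F1, F2 or F3 recovery). Control worms were kept without radiation for F0 to F3. This gives 4 exposed, 3 recovery and 4 control groups of 3 libraries each, 33 in all, and the labels do not say whether the 3 libraries of a group came from separate irradiations or cultures, so p-values measure the spread between these libraries, which may be technical.

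Libraries held between 27.7 and 60.8 M counted reads (M, 1000000 reads), with a median of 37.3 M. Fewest genes were detected in F3 recovery replicate 3 (18240) and F3 control replicate 3 (19610), against at least 20503 in each of the others. Ribosomal RNA took 3.19% to 24.3% of the counts, most in F2 control replicate 1 (24.3%) and F3 exposed replicate 1 (20.8%). F0 exposed replicate 1 and F2 control replicate 3 had the lowest summed levels of body wall muscle, intestine, oocyte and eggshell, and cuticle and moult genes within their groups. Sperm genes summed to 2315 to 4443 CPM (reads per 1000000 reads of the scaled library), yolk genes to 16964 to 35547 CPM and oocyte and eggshell genes to 5547 to 9416 CPM over all libraries, so germline and adult markers were present throughout. Male markers summed to 3.29 to 12.9 CPM. In whole animals, fewer cells of a type and less RNA per cell cannot be told apart.

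Set side by side per length of transcript, the enzymes covered a wide range of levels, and their order was led by the peroxiredoxins. In CPM per kb of exon, averaged over the 33 libraries, prdx-2 stood at 856, prdx-3 at 247, sod-1 at 233, sod-2 at 169 and trxr-1 at 72.5. Below these came ctl-2 at 30.4, sod-4 at 13.5, ctl-1 at 2.91, ctl-3 at 2.06 and sod-5 at 0.214 CPM per kb. prdx-2, the cytosolic peroxiredoxin, was the highest and sod-5, a minor cytosolic copper/zinc superoxide dismutase, the lowest of the 10 in 33 of 33 libraries, while the full order held in 14 libraries.

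**Figure D1:**
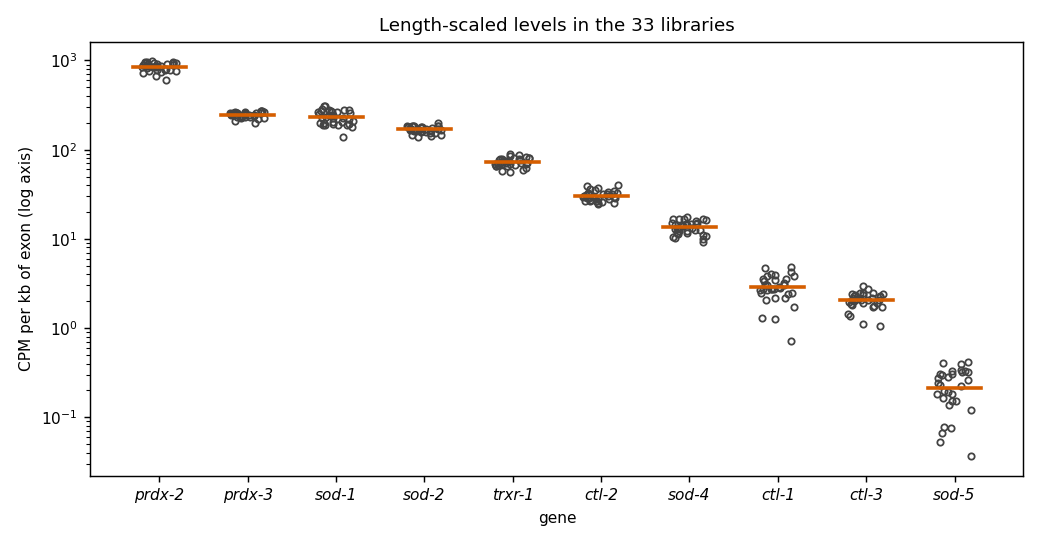
CPM per kb of exon on a log axis for the 10 genes; each circle is 1 of the 33 libraries and the bar is the mean. prdx-2 lies above and sod-5 below all the others; the 2 libraries with no sod-5 read cannot be drawn on this axis.

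The abundant genes had similar means in the 11 groups. The highest group mean was 1.2 times the lowest for prdx-2, 1.23 times for prdx-3, 1.31 times for sod-2, 1.33 times for trxr-1, 1.36 times for ctl-2, 1.53 times for sod-1 and 1.63 times for sod-4, in CPM. Wider ratios came from the genes with few reads: 1.76 times for ctl-3, 3.02 times for ctl-1 and 3.58 times for sod-5. When the 11 groups of a gene were put in order of their mean, 3.00% of the neighbouring pairs of the 10 genes did not overlap, against 4.41% over all tested genes, so the overlap of neighbours was near that of genes in general. Of the 10 neighbouring pairs of each gene, 1 did not overlap for sod-2 (F1 recovery over F2 exposed), 1 for sod-4 (F2 recovery over F3 exposed), 1 for prdx-3 (F1 recovery over F2 recovery), and 0 for each of the other 7 genes.

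**Figure D2:**
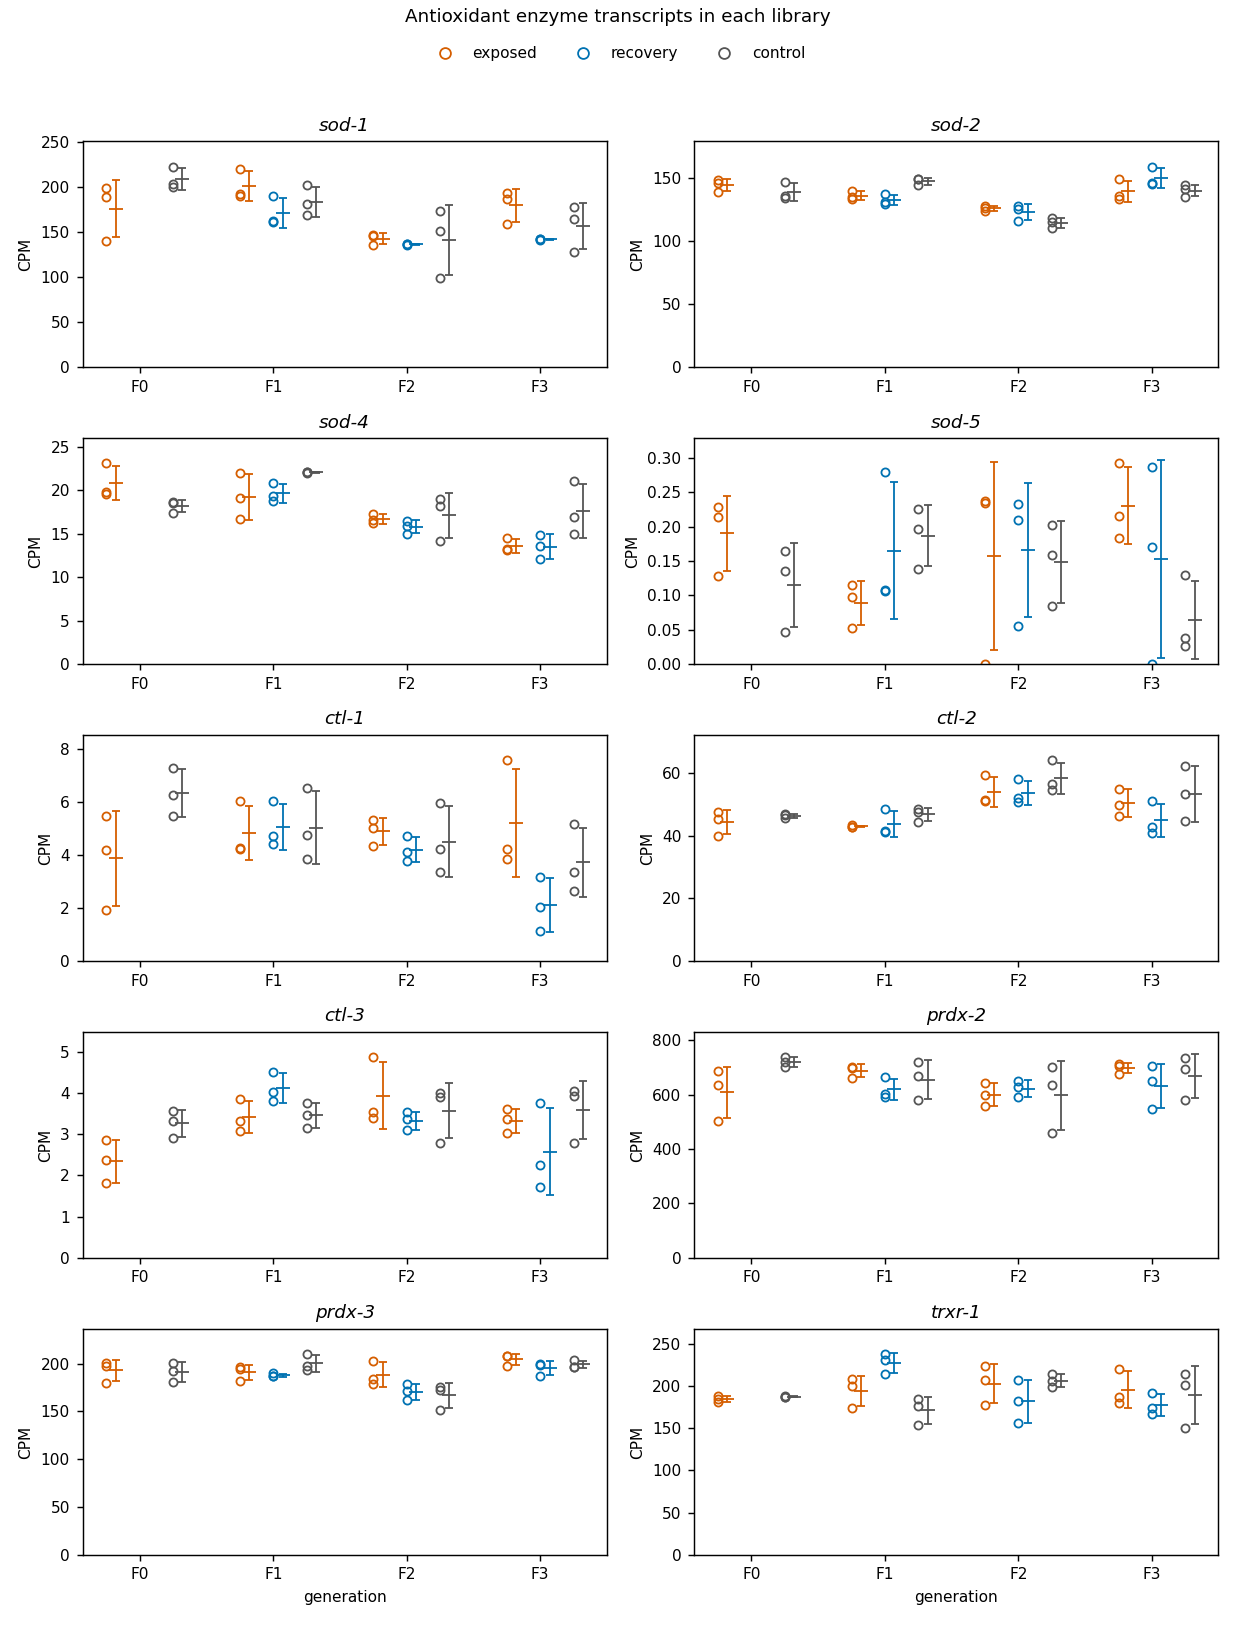
CPM of each gene in each library by generation (circles), with the mean and SD of each group of 3 beside them; exposed stands left of recovery and recovery left of control, and each axis starts at 0. Groups overlap in most panels, sod-2 dips in F2, and prdx-3 dips in F2 recovery and control worms.

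A gene was called where its Benjamini-Hochberg adjusted p over all 17627 tested genes was under 0.05 in edgeR's quasi-likelihood test. Exposed against control, 0 of the 10 genes were called in F0, where 1.36% of all genes were called. Likewise 0 of 10 were called in F1 (1.47% of all genes) and 0 of 10 in F2 (9.00%), and 1 of 10, sod-4, was called in F3 (5.24%), as lower in exposed worms (2.37% of all genes were called lower). At an unadjusted p under 0.05 there were 2 in F0 (16.2% of all genes), 1 in F1 (12.3%), 2 in F2 (24.4%) and 2 in F3 (20.9%). DESeq2 called 0 in F0 (3.67% of the genes it gave an adjusted p), 0 in F1 (2.54%), 2 in F2 (15.5%) and 1 in F3 (6.84%). Over the mean of the 4 generations 0 of 10 were called, against 8.29% of all genes, with 0 at an unadjusted p under 0.05 (21.2%) and 0 by DESeq2 (9.45%). The shares within a generation moved with the processing: genes called over all genes numbered 240 in F0 but 10 with F0 fitted alone, and 1587 in F2 but 11 with a cuticle and moult score as covariate. The median log2 fold change, exposed over control, was 0.00 for the 10 genes and -0.01 for all tested genes.

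For the mean over F0 to F3 the intervals were narrow for the abundant enzymes. The fold, exposed over control, was 1.01 for sod-2 (95% interval 0.974 to 1.05), 1.03 for prdx-3 (0.984 to 1.07) and 0.982 for prdx-2 (0.902 to 1.07). It was 1.02 for sod-1 (0.917 to 1.13), 1.03 for trxr-1 (0.956 to 1.12), 0.935 for ctl-2 (0.87 to 1.01) and 0.929 for sod-4 (0.856 to 1.01). The intervals were wider for ctl-3 (0.926, 0.797 to 1.07), ctl-1 (0.976, 0.769 to 1.24) and above all sod-5 (1.31, 0.741 to 2.30), the genes with the fewest reads.

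**Figure D3:**
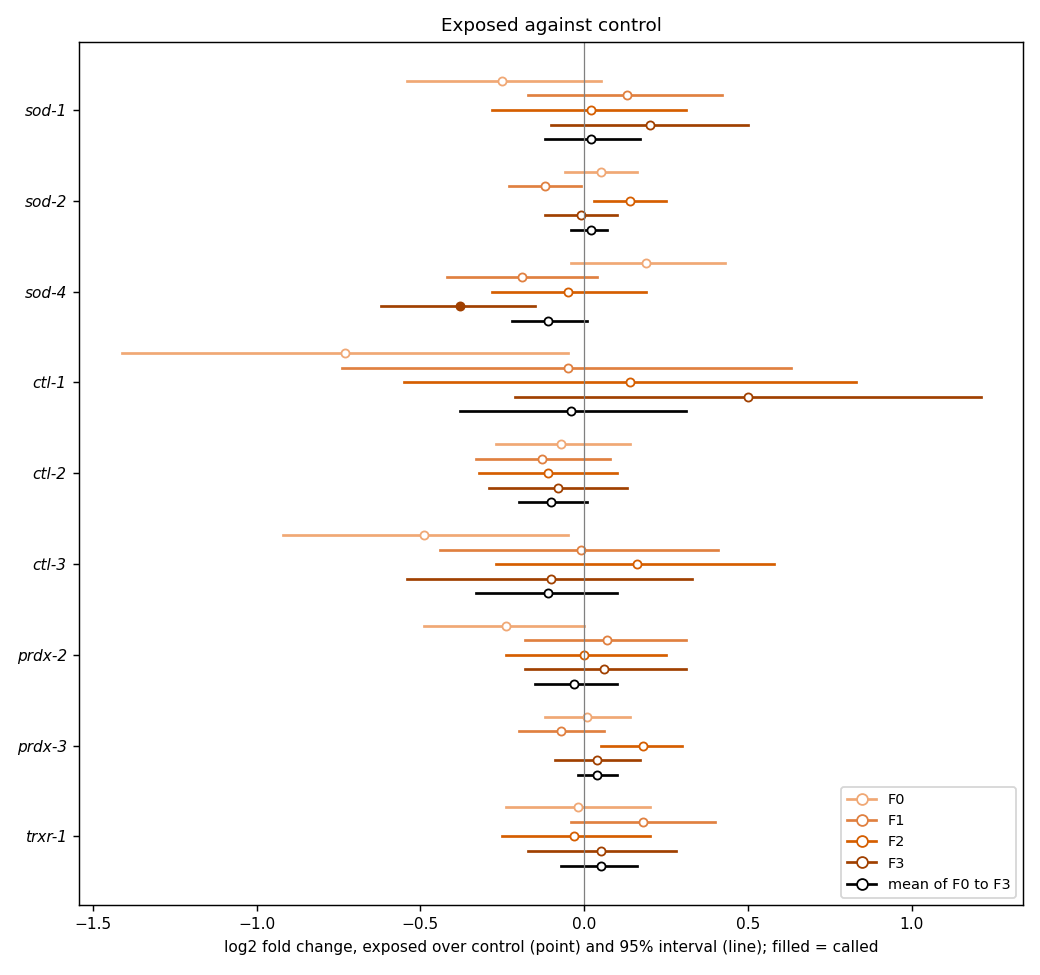
Log2 fold change of exposed over control worms in each generation and for the mean of F0 to F3, with 95% intervals; filled points were called. sod-4 in F3 is the filled point, at -0.38; sod-5 is not drawn, since its intervals are several times wider than the axis allows.

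Recovery against control, 1 of 10 genes, trxr-1, was called higher in F1, where 2.81% of all genes were called and 2.05% were called higher. In F2 recovery 0 of 10 were called (3.05% of all genes), with 0 at an unadjusted p under 0.05 (20.2%) and 0 by DESeq2 (7.08%). In F3 recovery 0 of 10 were called by edgeR (1.58%), with 4 at an unadjusted p under 0.05 (15.8%), sod-4, ctl-1, ctl-2 and ctl-3, all with a lower estimate in recovery, and 1, sod-4, by DESeq2 (2.95%). The 538 genes called over all genes in F2 recovery became 0 with the cuticle and moult score, and the 279 in F3 recovery became 1 with F3 fitted alone. Over the mean of F1 to F3 recovery edgeR called 0 of 10 (2.89%), with 2 at an unadjusted p under 0.05 (21.3%), sod-4 and ctl-2, and 1, sod-4, by DESeq2 (7.59%). These comparisons share their control libraries with the exposed against control comparisons, so their values are not independent of those.

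Exposed against recovery worms differ in whether radiation went on after F0. edgeR called 0 of 10 genes in F1 (1.45% of all genes), 0 in F2 (0.00567%) and 0 in F3 (1.68%), and 0 over the mean of F1 to F3 (1.40%). At an unadjusted p under 0.05 there were trxr-1 alone in F1 (13.9% of all genes), prdx-3 alone in F2 (6.52%), sod-1 and ctl-1 in F3 (21.6%), and sod-1, ctl-1 and prdx-3 in the mean (17.4%). DESeq2 called 0 in F1 (3.41%), 0 in F2 (0.00342%), 1 in F3, ctl-1 (4.83%), and 0 in the mean (3.75%).

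Whether the exposed against control difference itself differed between a later generation and F0 was tested directly. edgeR called 0 of 10 genes for F1 against F0 (0.0567% of all genes), 0 for F2 against F0 (3.04%) and 0 for F3 against F0 (0.221%). At an unadjusted p under 0.05 there were 2 genes for F1 (14.2% of all genes), 1 for F2 (19.7%) and 3 for F3 (14.9%). DESeq2 called 0 for F1 (0.409%), 0 for F2 (7.93%) and 1 for F3 (1.05%), sod-4.

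Among the superoxide dismutases, sod-1 (WBGene00004930, chromosome II, 6972706 to 6973887, minus strand) encodes the main cytosolic copper/zinc enzyme. In F0 it had 140, 199 and 189 CPM in exposed worms, against 200, 223 and 204 CPM in controls. All 3 exposed libraries were below all 3 controls, the first by far. The fold was 0.842 (95% interval 0.686 to 1.03, adjusted p = 0.402, edgeR). In F3 sod-1 had 159, 187 and 194 CPM in exposed worms, 142, 143 and 141 CPM in recovery worms and 165, 178 and 128 CPM in controls. The exposed libraries all lay above the recovery libraries and overlapped the controls. Exposed over recovery the fold was 1.27 in F3 (1.03 to 1.55, adjusted p = 0.174) and 1.16 over F1 to F3 (1.03 to 1.30, adjusted p = 0.187), neither called. Summed body wall muscle, intestine, male, and cuticle and moult markers were also higher in F3 exposed than in F3 recovery worms without overlap. Their part in the sod-1 value was not tested.

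sod-2 (WBGene00004931, chromosome I, 8434550 to 8435807, plus strand) encodes the main mitochondrial manganese enzyme and varied least between replicates, with a mean coefficient of variation of 3.68% within groups. In F2 it had 124, 128 and 126 CPM in exposed worms, 116, 128 and 125 CPM in recovery worms and 118, 110 and 115 CPM in controls. The exposed libraries did not overlap the controls, but the gap was small beside the level. The fold, exposed over control, was 1.10 (95% interval 1.02 to 1.19) with an adjusted p of 0.106 in edgeR's test, and the gene was called by DESeq2 (adjusted p = 0.0132) and in edgeR with DESeq2's size factors (0.0331). In F1 the estimates ran the other way: 135, 133 and 140 CPM in exposed worms, 137, 131 and 129 CPM in recovery worms, and 149, 149 and 144 CPM in controls. Neither group overlapped the controls there, with folds of 0.922 for exposed (adjusted p = 0.371) and 0.897 for recovery (adjusted p = 0.13) over control, not called. A stretch of 21 of the 802 exonic bases of sod-2 overlaps dpt-1 on the opposite strand, which was itself called higher in exposed F2 worms (log2 fold change 0.24, adjusted p = 0.00721); strand use in the counting is not given, and the part of shared reads in the sod-2 value was not tested.

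sod-4 (WBGene00004933, chromosome III, 9496884 to 9500375, minus strand) encodes the extracellular copper/zinc enzyme, made in secreted and membrane-bound forms. In F3 it had 14.5, 13.1 and 13.2 CPM in exposed worms, 13.6, 14.9 and 12.1 CPM in recovery worms, and 16.9, 15 and 21.1 CPM in controls. All exposed and all recovery libraries were below all controls, and the control libraries were the most scattered. It fell in exposed worms, with a log2 fold change of -0.38 ± 0.12 (SE), a fold of 0.767 (95% interval 0.65 to 0.904) and an adjusted p of 0.04999 (edgeR), which lies at the threshold. Recovery over control gave -0.39 (fold 0.765, 0.65 to 0.9), with an adjusted p of 0.0782. Exposed over recovery gave 0.00 in F3, a fold of 1 (0.85 to 1.18).

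The call of sod-4 in F3 was kept in 3 of 13 alternative fits. These were with DESeq2's size factors (adjusted p = 0.0458), in DESeq2 (0.026) and without F3 control replicate 2 (-0.49, 0.0123). It was lost when any other 1 F3 exposed or control library was left out. Without F3 control replicate 3, the library at 21.1 CPM, the log2 fold change was -0.23 (adjusted p = 0.289, edgeR). That library is 1 of the 2 with fewest genes detected. Whether the losses came from single libraries or from the smaller fits was not tested. In the same comparison 3 of 9 male markers were called higher, summing to 7.89 to 12.9 CPM in exposed worms and 3.42 to 5.29 CPM in controls, as were 3 of 10 intestine and 4 of 191 cuticle and moult genes; their part in the sod-4 value was not tested. sod-4 shares 175 of its 1306 exonic bases with ctr-9 on the opposite strand, and ctr-9 had a log2 fold change of -0.04 there (adjusted p = 0.72).

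In the earlier generations sod-4 was not called. In F0 exposed worms had 23.1, 19.8 and 19.6 CPM, against 18.5, 17.4 and 18.7 CPM in controls, all above them, with a fold of 1.14 (0.974 to 1.34, adjusted p = 0.405). The highest value was of F0 exposed replicate 1, the library with the lowest body wall muscle and intestine sums of its group. The part of this in the sod-4 value was not tested. In F1 the values were 16.7, 22 and 19.1 CPM in exposed, 19.3, 18.8 and 20.9 CPM in recovery and 22.1, 22.1 and 22 CPM in control worms. In F2 they were 16.6, 16.2 and 17.3 CPM in exposed, 15, 15.9 and 16.5 CPM in recovery and 14.2, 18.2 and 19 CPM in control worms, with full overlap. The F3 difference minus the F0 difference was -0.58 on the log2 scale (adjusted p = 0.127, edgeR), and DESeq2 called it. Over the mean of F1 to F3, recovery over control gave -0.23 (fold 0.855, 0.779 to 0.939) with an adjusted p of 0.0568, called in 4 of 25 alternative fits; without the 2 F3 libraries of few detected genes it was -0.15 (adjusted p = 0.195).

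sod-5 (WBGene00007036, chromosome II, 4417633 to 4419130, plus strand) is best known from the dauer larva and was near the limit of detection. It had 0 to 11 reads per library. In F3 it had 5, 9 and 6 reads in exposed worms, 10, 11 and 0 reads in recovery worms, and 1, 5 and 1 reads in controls. In CPM these were 0.183, 0.292 and 0.216 in exposed worms, 0.171, 0.287 and 0 in recovery worms, and 0.0375, 0.13 and 0.0259 in controls. The exposed libraries lay above the controls, with a fitted fold of 3.35, an interval of 1 to 11.2 and an adjusted p of 0.239 (edgeR). The 2 libraries with no read, F2 exposed replicate 3 and F3 recovery replicate 3, allow up to 0.0918 and 0.0658 CPM, taking 3 reads as the limit of a count of 0 and counting error only.

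The catalase genes lie next to each other on chromosome II in the same orientation: ctl-2 (WBGene00000831, 14299556 to 14302027), ctl-1 (WBGene00000830, 14303568 to 14306260) and ctl-3 (WBGene00013220, 14307798 to 14310779), all on the minus strand, 1540 and 1537 bp apart. They are similar in sequence, and how reads that could come from more than 1 of them were counted is not given, so values of the scarcer ctl-1 and ctl-3 are uncertain. ctl-2 encodes the peroxisomal catalase and was by far the most abundant per length. ctl-2 was not called in any radiation or recovery comparison. In F3 it had 55.1, 46.3 and 49.9 CPM in exposed worms, 42.8, 51 and 41 CPM in recovery worms and 62.4, 44.6 and 53.2 CPM in controls. Its recovery over control fold was 0.842 in F3 (0.73 to 0.972, adjusted p = 0.219) and 0.898 over F1 to F3 (0.826 to 0.975, adjusted p = 0.124), with overlapping groups in F3.

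ctl-1 encodes the cytosolic catalase. In F0 it had 1.94, 5.46 and 4.2 CPM in exposed worms, against 6.28, 7.29 and 5.48 CPM in controls. The exposed libraries were all below the controls, and the highest of them, replicate 2, lay close to the lowest control. The fold was 0.603 (0.377 to 0.964, adjusted p = 0.274, edgeR). In F3 ctl-1 had 7.57, 3.83 and 4.22 CPM in exposed worms, 2.02, 3.18 and 1.12 CPM in recovery worms, and 5.18, 3.34 and 2.64 CPM in controls. Exposed libraries lay above every recovery library, and controls lay between and overlapped both.

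Exposed over recovery in F3, ctl-1 gave a log2 fold change of 1.32 ± 0.35 (SE), a fold of 2.49 (1.51 to 4.11), with an adjusted p of 0.0507 in edgeR, just past the threshold. DESeq2 called it (adjusted p = 0.00926), and it was also called without F3 exposed replicate 2 (0.0304) or without F3 recovery replicate 2 (0.0247). Without F3 exposed replicate 1, the library at 7.57 CPM and with 20.8% ribosomal RNA, the log2 fold change was 0.95 (adjusted p = 0.239), and without F3 recovery replicate 3, a library with few detected genes, it was 1.02 (0.225). With a cuticle and moult score as covariate it was 0.83 (0.424). Of that list, 6 of 191 genes were called higher in exposed than in recovery F3 worms. Its genes summed to 16783 to 18690 CPM in exposed and 11481 to 16470 CPM in recovery F3 worms. Male markers summed to 7.89 to 12.9 CPM in exposed and 3.51 to 4.87 CPM in recovery F3 worms, with 2 of 9 called higher. Body wall muscle genes summed to 3925 to 4093 CPM in exposed and 2878 to 3420 CPM in recovery worms, and intestine genes to 1956 to 2361 CPM in exposed and 1586 to 1884 CPM in recovery worms, with 0 of 8 and 0 of 10 called by edgeR. These sums did not overlap between the groups, and their part in the ctl-1 value was not tested.

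ctl-3, the catalase whose role is least defined, had 1.81, 2.86 and 2.37 CPM in exposed F0 worms, against 3.56, 3.32 and 2.92 CPM in F0 controls. The groups did not overlap, though the nearest libraries were close. The fold was 0.714 (0.528 to 0.965, adjusted p = 0.258). F0 exposed replicate 1 was the lowest library of its group for ctl-1, ctl-2, ctl-3, sod-1 and prdx-2. That library also had 2964 CPM of summed body wall muscle genes, against 4595 and 4029 CPM in the other exposed F0 libraries, and 1577 CPM of intestine genes, against 2161 and 2000 CPM. The part of these differences in the F0 values was not tested.

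Of the peroxiredoxins, prdx-2 (WBGene00006434, chromosome II, 5378195 to 5379631, plus strand) encodes the cytosolic enzyme. In F0 it had 505, 687 and 635 CPM in exposed worms, against 738, 720 and 703 CPM in controls. All exposed libraries lay below the controls, with a fold of 0.846 (0.714 to 1, adjusted p = 0.317, edgeR). In F1 to F3 the folds of exposed over control were 1.05, 1 and 1.04, with overlapping groups in each generation. In F2 the control group was scattered, at 703, 635 and 458 CPM, replicate 3 being the library with the lowest muscle and intestine sums of that group.

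prdx-3 (WBGene00011110, chromosome III, 4407444 to 4408437, plus strand) encodes the mitochondrial peroxiredoxin. In F2 it had 184, 203 and 179 CPM in exposed worms, 162, 179 and 171 CPM in recovery worms, and 176, 173 and 152 CPM in controls. The exposed libraries lay just above the controls, and recovery overlapped the controls. The fold, exposed over control, was 1.13 (95% interval 1.04 to 1.24) with an adjusted p of 0.0686 in edgeR, while DESeq2 called it (0.00867), as did edgeR with DESeq2's size factors (0.0233). Without F2 control replicate 3 the log2 fold change was 0.13 (adjusted p = 0.209), against 0.18 with it. In F0, F1 and F3 the folds were 1.01, 0.953 and 1.03, with overlapping groups. In exposed F2 worms, 28 of 29 sperm genes and 47 of 191 cuticle and moult genes were called lower than in F2 controls, and the part of this in the sod-2 and prdx-3 values of F2 was not tested.

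trxr-1 (WBGene00015553, chromosome IV, 7011954 to 7016586, plus strand) encodes the thioredoxin reductase with a selenocysteine, the cytosolic one. It rose in F1 recovery worms. It had 208.4, 173.7 and 200.4 CPM in exposed, 214.9, 237.7 and 231.3 CPM in recovery, and 154.0, 184.7 and 175.6 CPM in control F1 worms. The recovery libraries lay above every control and every exposed library, and exposed and control worms overlapped. Recovery over control gave a log2 fold change of 0.41 ± 0.11 (SE), a fold of 1.33 (1.14 to 1.55) and an adjusted p of 0.0347 (edgeR); DESeq2 gave 0.0133. The adjusted p lay between 0.0584 and 0.24 when any 1 of the 6 libraries was left out, with a log2 fold change of 0.34 to 0.47, so the call was lost each time. Calls over all genes also fell in these fits, from 495 to between 186 and 470. Whether the loss came from single libraries or from the smaller fit was not tested.

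Exposed over control in F1 the trxr-1 fold was 1.13 (0.97 to 1.32, adjusted p = 0.541), and exposed over recovery 0.852 (0.729 to 0.994, adjusted p = 0.336). In later recovery generations trxr-1 was not called: recovery over control the fold was 0.881 in F2 (0.755 to 1.03) and 0.941 in F3 (0.806 to 1.10). In F2 trxr-1 had 207.3, 224.1 and 177.6 CPM in exposed worms, an average of 182 ± 25.3 CPM in recovery worms (SD, n = 3) and 215.0, 198.9 and 205.9 CPM in controls, and the groups overlapped. In F0 the gene was among the steadiest, with 181, 188 and 185 CPM in exposed and 187, 187 and 188 CPM in control worms. Of the marker lists, 1 of 8 body wall muscle genes was called higher and 1 of 191 cuticle and moult genes lower in F1 recovery than in F1 control worms. Sperm genes summed to 3186 to 3374 CPM in F1 recovery and 3737 to 4367 CPM in F1 control worms. Yolk genes summed to 17907 to 19363 and 20349 to 23069 CPM, and intestine genes to 1538 to 1686 and 1717 to 2171 CPM. These sums did not overlap between the groups, those of the other lists did, and their part in the trxr-1 value was not tested.

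Unirradiated controls of successive generations show how far these genes move without radiation. In F1 against F0 controls edgeR called 0 of 10 genes, where 19.8% of all genes were called, with 1, sod-4, at an unadjusted p under 0.05 (34.6%) and 0 by DESeq2 (20.0%). In F2 against F1 controls 4 of 10 were called (23.5% of all genes): ctl-2 higher (12.8% of all genes), and sod-2, sod-4 and prdx-3 lower (10.6%). In F3 against F2 controls 2 of 10, sod-2 and prdx-3, were called higher, where 29.2% of all genes were called and 12.9% were called higher. Marker genes moved too. In F1 against F0 controls 107 of 191 cuticle and moult genes were called higher and 13 lower. There 6 of 6 yolk and 5 of 12 oocyte and eggshell genes were called lower. In F2 against F1 controls 15 of 191 cuticle and moult genes were called higher and 3 lower. Also higher were 3 of 6 yolk, 4 of 12 oocyte and eggshell, 3 of 8 muscle and 3 of 10 intestine genes, and 1 of 10 intestine genes was lower. Their part was not tested.

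sod-2 and prdx-3, both mitochondrial, moved down and up in turn. This was not a trait of mitochondrial enzymes as such. sod-3, a mitochondrial superoxide dismutase described below, was called higher in F2 than in F1 controls (fold 2.05, adjusted p = 9.58e-06, edgeR). Extracellular sod-4 was called lower in that step, as were 9 of 15 tested thioredoxins, glutaredoxins and reductases, with 0 higher. Of those 15, 5 were called higher and 3 lower in F3 than in F2 controls. sod-2 had 134, 147 and 136 CPM in F0, 149, 149 and 144 CPM in F1, 118, 110 and 115 CPM in F2 and 141, 144 and 135 CPM in F3 controls. The F2 controls lay below every other control library. In F2 against F1 the log2 fold change was -0.36 ± 0.05 (SE, adjusted p = 1.2e-05, edgeR), called in 13 of 13 alternative fits. In F3 against F2 it was 0.29 ± 0.05 (adjusted p = 0.000343).

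prdx-3 had 181, 201 and 192 CPM in F0, 198, 210 and 193 CPM in F1, 176, 173 and 152 CPM in F2 and 197, 197 and 204 CPM in F3 controls. Again the F2 controls were below every other control library. In F2 against F1 its log2 fold change was -0.27 ± 0.06 (adjusted p = 0.00206), called in 13 of 13 alternative fits, and in F3 against F2 it was 0.26 ± 0.06 (0.00323). The F3 against F2 calls of both genes were lost with the cuticle and moult score as covariate, where sod-2 had 0.23 (adjusted p = 0.196) and prdx-3 0.37 (0.0632); 122 of the 191 genes of that list, 22 of 29 sperm, 5 of 10 intestine and 4 of 8 muscle genes were called lower in F3 than in F2 controls.

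sod-4 fell in F2 against F1 controls, with 14.2, 18.2 and 19 CPM in F2 and 22.1, 22.1 and 22 CPM in F1 (log2 fold change -0.36 ± 0.11, adjusted p = 0.0225). ctl-2 rose, with 64.1, 56.4 and 54.5 CPM in F2 and 44.5, 47.7 and 48.5 CPM in F1 (fold 1.24, 1.08 to 1.44, adjusted p = 0.0234). For both genes the 2 generations did not overlap. sod-4 kept its call in 10 of 13 alternative fits and ctl-2 in 8. Each lost it without F2 control replicate 1, the library with 24.3% ribosomal RNA, with -0.27 (adjusted p = 0.121) for sod-4 and 0.22 (0.212) for ctl-2. sod-4 also lost it without F1 control replicate 1 (0.0541) or 3 (0.0528), and ctl-2 without F1 control replicate 1 (0.0961) or 2 (0.0805), without F2 control replicate 2 (0.0625) and with the cuticle and moult score (0.23, 0.086). ctl-2 shares 65 of its 1611 exonic bases with Y54G11A.7 on the opposite strand, which was itself called higher in F2 than in F1 controls (log2 fold change 0.65, adjusted p = 0.0021), and the part of shared reads in the ctl-2 value was not tested. sod-1 gave -0.38 with an adjusted p of 0.0557 and overlapping groups. It was called in 7 of 13 alternative fits, with an adjusted p down to 0.00542 without F2 control replicate 2, while without F2 control replicate 3, at 98.8 CPM, it gave -0.21 (0.263). Generation, culture batch and exact stage at harvest cannot be told apart in these steps.

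**Figure D4:**
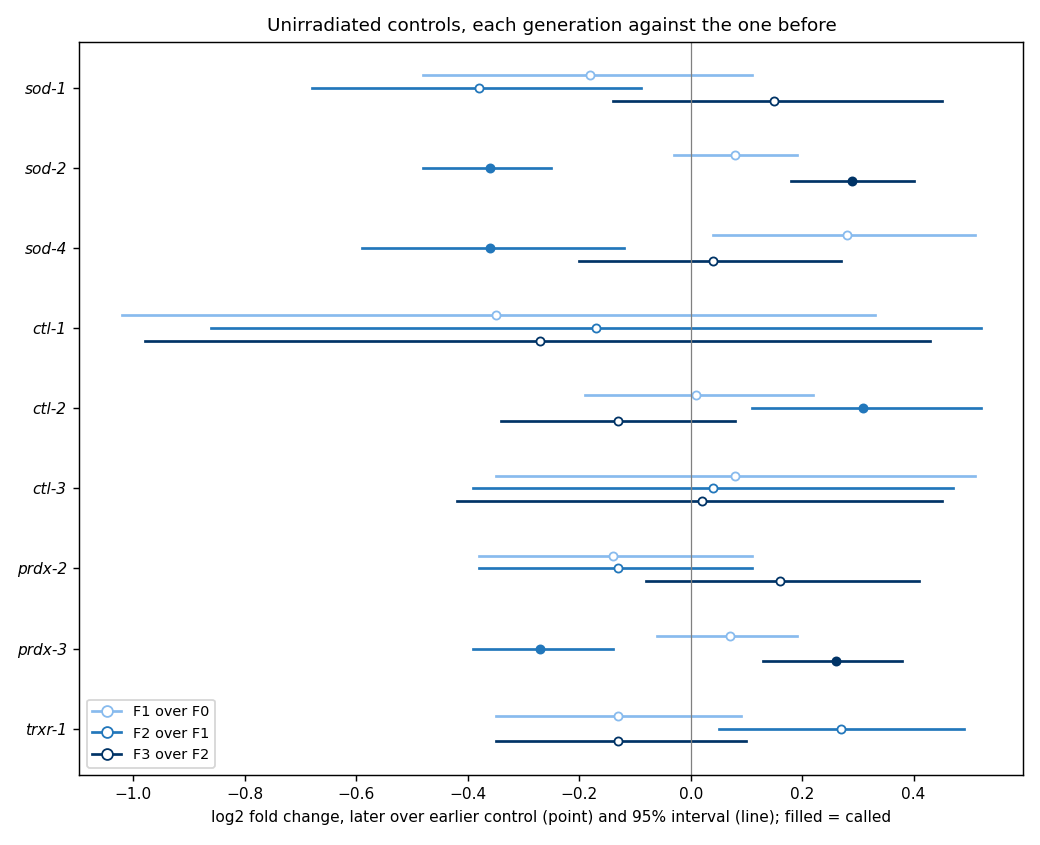
Log2 fold change of each unirradiated control generation over the one before, with 95% intervals; filled points were called. sod-2 and prdx-3 are filled on the left for F2 over F1 and on the right for F3 over F2; sod-5 is not drawn.

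Genes of neighbouring pathways were measured in the same libraries. Over all tested genes, 5.53% were called higher and 2.77% lower in exposed worms over the mean of F0 to F3, and 1.33% higher and 1.57% lower in recovery worms over F1 to F3. sod-3, the inducible mitochondrial superoxide dismutase and a standard reporter of low insulin signalling, is not among the 10 genes. It was called higher in exposed worms over the mean of F0 to F3, with a fold of 1.30 (log2 fold change 0.38 ± 0.07 SE, adjusted p = 0.000849, edgeR), with means of 6.67 ± 1.67 CPM over exposed and 5.18 ± 1.59 CPM over control libraries (SD, n = 12 each). It kept this call in 30 of 30 alternative fits. Within generations it was called in F2 alone, a call lost in 7 of 13 alternative fits, with 8.3 ± 0.385 CPM in exposed libraries and 6.02 ± 0.39 CPM in controls (SD, n = 3 each), and its recovery over control fold over F1 to F3 was 1.13 (adjusted p = 0.222). The test of exposed against recovery over F1 to F3 gave 1.16 for sod-3 (adjusted p = 0.176), so a difference between continued and stopped exposure was not called. Unirradiated controls also differed between generations: sod-3 averaged 2.94 ± 0.0635 CPM in F1 controls, against 5.23 ± 1.14 CPM in F0 controls (SD, n = 3 each; fold 0.563, adjusted p = 0.000207, edgeR), and F2 over F1 controls gave a fold of 2.05 (adjusted p = 9.58e-06).

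Of 13 other peroxidases, 1 was called higher and 0 lower in exposed worms over the mean of F0 to F3, the haem peroxidase skpo-1 (fold 1.09, adjusted p = 0.00418), and 1 higher and 1 lower in recovery worms over F1 to F3, skpo-1 (1.1, adjusted p = 0.0325) and skpo-2 (0.541, adjusted p = 0.0263). By generation, exposed against control, gpx-7 was called lower in F1 (fold 0.654, adjusted p = 0.00829) and skpo-1 higher in F2 (1.23, 0.00439). In recovery F2 worms, where 3.05% of all genes were called, 1 of 13 was called higher, skpo-1 (1.25, 0.00591), and 1 lower. In F0 0 of 13 were called, with 4 at an unadjusted p under 0.05 (16.2% of all genes) and 1 by DESeq2 (3.67%). In F3 0 were called, with 0 at an unadjusted p under 0.05 (20.9%) and 0 by DESeq2 (6.84%). Of 15 tested thioredoxins, glutaredoxins and reductases, 1 was called higher over F0 to F3, sesn-1, which encodes sestrin (1.10, adjusted p = 0.0149). In recovery F2 worms 0 of these 15 were called higher and 1 lower. sesn-1 had 30.3 ± 0.305 CPM in exposed and 23 ± 0.515 CPM in control F3 worms (SD, n = 3 each), a fold of 1.32 (adjusted p = 0.00135), and gsr-1, glutathione reductase, was called higher in F2 (1.14, adjusted p = 0.0471). msra-1, a methionine sulfoxide reductase, was called lower in recovery worms over F1 to F3 (0.737, adjusted p = 0.0361), with 115 ± 40.4 CPM in recovery and 158 ± 67.3 CPM in control worms (SD, n = 9 each).

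Of 11 genes for glutathione synthesis and NADPH supply, gspd-1, glucose-6-phosphate dehydrogenase, was called higher over F0 to F3, with 94.5 ± 8.14 CPM in exposed and 83.7 ± 9.19 CPM in control worms (SD, n = 12 each; fold 1.13, adjusted p = 0.00302). nnt-1, the mitochondrial transhydrogenase, was called lower (0.809, adjusted p = 0.0479), a call kept in 8 of 30 alternative fits. gspd-1 was also called higher in exposed F2 worms (1.26, adjusted p = 0.00788), in recovery F2 worms (adjusted p = 0.0336) and in recovery worms over F1 to F3 (1.12, 0.0409). Of the 3 tested genes for selenocysteine insertion, which trxr-1 protein needs, edgeR called 0 over F0 to F3 and 0 in recovery worms over F1 to F3. In each, 2 had an unadjusted p under 0.05 (21.2% and 21.3% of all genes) and DESeq2 called 0 (9.45% and 7.59%).

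The next list held 4 tested genes for superoxide and peroxide production at the cell surface and for its control. Of these, memo-1 was called lower over F0 to F3, with 19.7 ± 2.33 CPM in exposed and 23.3 ± 2.15 CPM in control worms (SD, n = 12 each, fold 0.847, adjusted p = 0.00231). Whether production itself changed was not tested. doxa-1, a maturation factor of the dual oxidase, was called lower in exposed F2 worms (0.711, adjusted p = 0.00568) and in recovery F2 worms (0.746, 0.0286), and tsp-15, a tetraspanin that works with it, lower in recovery worms over F1 to F3 (0.805, adjusted p = 0.0241). Of 19 stress response regulators, 1 was called higher and 1 lower over F0 to F3, the intestinal GATA factor elt-2 (1.28, adjusted p = 0.00425) and the kinase nsy-1 (0.878, adjusted p = 0.0134). The same genes were called in F3, elt-2 with a fold of 1.58 (adjusted p = 0.0156) and nsy-1 with 0.764 (0.0178). elt-2 is also 1 of the 10 intestine markers, of which 2 were called higher over F0 to F3 and 3 in F3. The part of intestine content in its value was not tested.

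Of 11 peroxisome assembly genes, 3 were called higher and 0 lower over F0 to F3: prx-11 (1.24, adjusted p = 0.00241), prx-1 (1.16, 0.00711) and prx-5 (1.16, 0.0281), while edgeR called 0 of 11 in each generation alone. At an unadjusted p under 0.05 there were 6 in F0 (16.2% of all genes), 1 in F1 (12.3%), 1 in F2 (24.4%) and 2 in F3 (20.9%). DESeq2 called 3 in F0 (3.67%), 0 in F1 (2.54%), 1 in F2 (15.5%) and 1 in F3 (6.84%). The median log2 fold change of this list was 0.14, against -0.01 for all tested genes. The calls of skpo-1, gspd-1, memo-1, elt-2, nsy-1 and prx-11 over F0 to F3 were kept in 30 of 30 alternative fits, those of prx-1 and sesn-1 in 29 and that of prx-5 in 24. Within a generation, the call of gpx-7 was lost without F1 exposed replicate 2, those of gspd-1 and doxa-1 in F2 without F2 control replicate 2, that of elt-2 in F3 without F3 exposed replicate 1 or F3 control replicate 2, and that of nsy-1 in F3 without F3 exposed replicate 2 or 3 or F3 control replicate 3. With the cuticle and moult score as covariate the F2 calls of gspd-1, doxa-1, skpo-1, gsr-1 and sod-3 and the F3 call of elt-2 were lost, and with F3 fitted alone those of sesn-1, elt-2 and nsy-1. gsr-1 in F2 was called in 5 of 13 fits. Over F1 to F3 recovery, tsp-15 was called in 17 of 25 fits, skpo-2 in 16, skpo-1 in 12, gspd-1 in 10 and msra-1 in 9. The genes gpx-7, gsr-1, msra-1, doxa-1 and tsp-15, and skpo-2, the gene called lower among the peroxidases in recovery worms, were named after their values were seen.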

How the data were processed

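The deposited files hold read counts per gene made by the authors, 1 file per library, and nothing was normalised in them. Per the labels' protocols, libraries were strand-specific and sequenced as paired reads of 150 bases. STAR and DESeq2 1.22.2 are named in the submitters' processing notes, without a role. No source used here gives the counting program, its strand setting, its handling of multiply mapped reads or the genome build. Gene identifiers were matched to Ensembl release 115 of WBcel235, and coordinates and exonic lengths are of that build. No sequence is shown.

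The counts of all 33 libraries were fitted together with edgeR 4.0.16 in R 4.3.3 (TMM scaling, low counts removed with filterByExpr, robust quasi-likelihood F-tests, 11 group coefficients, 22 residual degrees of freedom), which kept 17627 genes with a common biological coefficient of variation of 0.119. At most 0.0267% of the counts of a library fell on genes not tested. CPM are counts per 1000000 reads of the TMM-scaled library size. Standard errors and 95% intervals were derived from the F statistics and are approximate. There were 19 comparisons, each adjusted by the Benjamini-Hochberg method over all 17627 genes. Averages weight generations equally. The fit was tried on simulated counts with known changes in F0 exposed worms. These held no differences between the other groups and no libraries unlike their group, so the trial does not cover such features. DESeq2 1.42.0, other scalings, filters, covariates and left-out libraries served as alternatives. No replicate pair agreed within sampling noise (chi-square per degree of freedom at least 8.53 over 33 pairs).

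The members and gene lists were chosen with earlier results of these data known. All 10 members are named; of each pathway list, up to 4 called genes by smallest adjusted p over F0 to F3. Genes most like a member were to be named for members called in an averaged comparison, and there were none. Of the listed genes, trx-1, trx-5 and duox-2 had too few reads to be tested, and selb-1 was not analysed here.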

Additional observations from a re-analysis of the deposited data

How the results depend on the processing

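Counts of the 10 genes called changed under the following alternatives. In F2 exposed against control the count was 2 with DESeq2's size factors and 2 with DESeq2. In F3 exposed against control it was 0 with no filter on low counts, with the replicate block, with the cuticle and moult score as covariate, without the 2 F3 libraries of few detected genes, and with F3 libraries fitted alone, and 0 to 1 with 1 library left out. In F1 recovery against control it was 0 with no filter and 0 with any 1 library left out. In F3 recovery against control it was 1 with DESeq2 and 0 to 2 with 1 library left out. In F3 exposed against recovery it was 1 with the replicate block, 1 with DESeq2 and 0 to 2 with 1 library left out. For recovery against control over F1 to F3 it was 1 with DESeq2 and 0 to 2 with 1 library left out, and for the F3 minus F0 difference it was 1 with DESeq2 and 0 to 1 with 1 left out. In the controls, F1 against F0 gave 1 without the 2 F3 libraries and 1 with the compared generations fitted alone, F2 against F1, with 4 as reported, gave 5 (sod-1 added) with DESeq2's size factors, the replicate block, DESeq2, without the 2 F3 libraries and with the generations alone, and 2 to 4 with 1 library left out, and F3 against F2 gave 0 with the cuticle score. The cause was not tested in these cases, other than that fits with fewer libraries have fewer degrees of freedom. No direction of a called gene was reversed in any alternative.

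Replicate numbers are shared between groups in the labels. Deviations of same-numbered libraries correlated between -0.222 and 0.333, 3 of 30 pairs were over 0.1, and 10 of 33 libraries correlated best with their own number, so the numbers were not taken to pair libraries. With the replicate block, sod-4 in F3 exposed against control had an adjusted p of 0.0604, ctl-1 in F3 exposed against recovery 0.0433 and sod-1 in F2 against F1 controls 0.0381; it changed no other call of these genes.

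DESeq2's size factors moved the median of all genes by at most 0.04 on the log2 scale. A fit of the compared generations alone could not be made for exposed against control over F0 to F3, which uses every generation.

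Counts over all genes moved more. In F0 exposed against control, 240 became 10 with F0 fitted alone, 422 without the 2 F3 libraries, 491 with DESeq2 and 3 (without F0 control replicate 1) to 346. In F1 259 became 412 with DESeq2, 705 with F1 alone and 91 (without F1 control replicate 2) to 203; in F2 1587 became 2505 with DESeq2, 11 with the cuticle score and 153 (without F2 control replicate 2) to 2426; in F3 923 became 39 with F3 alone and 434 (without F3 exposed replicate 3) to 1215. For recovery against control, F1 gave 1024 with F1 alone and 186 to 470 with 1 library left out, against 495. F2 gave 297 with no filter, 0 with the cuticle score, 1060 without the F3 libraries, 1107 with DESeq2, 1012 alone and 13 to 1425, against 538. F3 gave 31 without its 2 libraries, 528 with DESeq2, 1 alone and 18 to 921, against 279. Over F1 to F3 it was 336 with no filter, 32 with the cuticle score, 229 without the 2 libraries, 1144 with DESeq2, 294 alone and 154 to 1854, against 510. Over F0 to F3, exposed against control stayed between 1169 and 1886, against 1462. Exposed against recovery, as reported 255 in F1, 1 in F2, 296 in F3 and 247 over F1 to F3, gave 26 to 704, 1 to 3, 1 to 975 and 10 to 608. The differences from F0, 10, 535 and 39, gave 2 to 81, 0 to 1233 and 0 to 363. In the controls 3494 became 409 with the cuticle score and 2089 without F1 control replicate 2 for F1 against F0, and 5148 became 107 with the score and 3127 without F3 control replicate 2 for F3 against F2.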
